A study of Mus musculus with 20 samples.

Results

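The genes described are 9 members of the peroxisomal pathway of fatty acid oxidation, followed in the salivary glands of mice at 4 ages. They are Phyh, Hacl1, Ehhadh, Hsd17b4, Amacr, Acaa1a, Scp2, Pex7 and Cat. Members were taken by gene symbol from probe sets annotated with a single symbol, and all 9 were on the array, among 18194 genes measured. They had 15 probe sets between them. The set that stands for a gene was selected on its mean log2 signal in all 20 arrays, the highest among the sets of that gene, so that mean is no result. The list was put together with an earlier result for Phyh at 4 and 8 weeks in view, so the fall of Phyh between these ages was known when the gene was chosen.

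The glands came from C57BL/6J mice, labelled male, sampled at 4, 8, 12 or 16 weeks, 5 at each age, and every mouse had an array of its own. C57BL/6J is a common inbred strain, and no treatment or transgene is given for these animals. They served as the healthy comparison for a congenic strain that develops a disease like Sjögren's syndrome, which was not analysed here. The whole gland was taken without its lymph nodes, so the array measured RNA of acinar, ductal, stromal and other cells together. A lower signal can come from fewer cells of a type or from less RNA per cell, and these cannot be told apart.

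The labels were checked before the members were described. Xist, the RNA transcribed from the inactive X chromosome of female cells, had a log2 signal between 8.96 and 10.72 on the 20 arrays, and its lowest percentile among the genes of an array was 96.3. The Y-linked genes were low, with Eif2s3y between 2.07 and 2.97, Kdm5d between 3.65 and 4.75 and Uty between 4.58 and 5.76. These values went against the label male on all 20 arrays, and they did not separate the ages. The mean log2 signal of 11 measured acinar markers was between 9.44 and 10.6 at the 4 ages, and that of 8 skeletal muscle markers between 3.91 and 4.08. The spread of log2 signal over genes differed between arrays, with a standard deviation (SD) from 1.38 to 1.90. Averaged by age it was 1.68, 1.50, 1.64 and 1.51 in order of age.

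Peroxisomes shorten fatty acids that mitochondria handle poorly: very long chains, dicarboxylic acids, methyl-branched chains and the side chains of bile acid precursors. Branched phytanic acid, which cannot enter β-oxidation directly, first loses a carbon by α-oxidation. PHYH hydroxylates phytanoyl-CoA, HACL1 cleaves the product, and AMACR turns the methyl group of the resulting pristanic acid into the form that β-oxidation accepts. EHHADH and HSD17B4 are the bifunctional enzymes that hydrate and dehydrogenate the chain, and the thiolases ACAA1A and SCPx, a product of Scp2, cleave it. PEX7 is the import receptor that brings PHYH and the ACAA1 thiolase into the organelle, and catalase, encoded by Cat, degrades the hydrogen peroxide that peroxisomal oxidases make. Several of these genes are known targets of the nuclear receptor PPARα in liver.

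The sequence just before the annotated start of Phyh is shown because it is the member with the widest range of age means. Those of Scp2 and Cat are shown because, of the 7 members searched, they alone held a match to the receptor half-site. The search covered 7 of the 9 members and did not cover Hsd17b4 and Amacr. The windows cover 250 bases and were taken from RefSeq on GRCm38.p6. They lie at chr2:4918746-4918995 on the plus strand for Phyh, at chr4:108118548-108118797 on the minus strand for Scp2 and at chr2:103485154-103485403 on the minus strand for Cat. The Scp2 window lies within the annotated span of the gene, from 108043830 to 108144971, so it precedes an internal start. Phyh spans 4918996 to 4938743 and Cat 103453904 to 103485153, both on chromosome 2. Each is written in the direction of transcription, and capitals mark the half-site AGGTCA.
Phyh: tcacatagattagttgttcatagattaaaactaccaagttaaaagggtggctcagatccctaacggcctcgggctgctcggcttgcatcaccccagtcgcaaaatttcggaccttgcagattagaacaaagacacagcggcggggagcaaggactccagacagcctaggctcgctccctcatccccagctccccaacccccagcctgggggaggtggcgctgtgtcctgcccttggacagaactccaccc
Scp2: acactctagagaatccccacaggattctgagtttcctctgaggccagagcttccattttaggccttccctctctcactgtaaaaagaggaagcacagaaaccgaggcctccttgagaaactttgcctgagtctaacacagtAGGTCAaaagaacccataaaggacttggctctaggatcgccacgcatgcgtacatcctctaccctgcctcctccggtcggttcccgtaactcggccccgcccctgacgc
Cat: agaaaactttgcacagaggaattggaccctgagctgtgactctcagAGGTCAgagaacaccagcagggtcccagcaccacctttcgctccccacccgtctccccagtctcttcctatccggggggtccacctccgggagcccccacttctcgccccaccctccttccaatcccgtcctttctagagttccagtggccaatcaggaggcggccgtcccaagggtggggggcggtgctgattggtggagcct

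Both strands were searched for the half-site AGGTCA and for its direct repeat with 1 base of any kind between the copies, the usual PPAR element, which contains the half-site at each end. No member window held the exact direct repeat, and 11 of 32851 windows of the same length (0.0335%) did. The half-site occurred in 2 of the 7 member windows and in 14% of all windows. Counted back from the start, the match in Scp2 covers bases -109 to -104 and that in Cat bases -204 to -199. These matches describe letters only.

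Of the 9 genes, 2 changed between 4 and 8 weeks by limma's moderated test with Benjamini-Hochberg adjustment over all genes (adjusted p under 0.05), both downwards. These were Phyh, which fell by 2.69 on the log2 scale, and Scp2, which fell by 0.99. Over all genes, 7.39% were called in this comparison and 4.13% were called lower. No member passed between 8 and 12 weeks or between 12 and 16 weeks, where 0.0055% and 0.192% of all genes did. At an unadjusted p under 0.05 these steps held 2 and 3 of the 9 members, against 18.8% and 14.2% of all genes. Between 4 and 16 weeks Phyh was lower and Acaa1a higher, with 3.63% of all genes called in either direction and 3.12% lower. At an unadjusted p under 0.05 this comparison and that of 8 with 4 weeks held 5 members each, against 24.2% and 32.4% of all genes. Comparisons that share an age share its 5 arrays and are not independent.

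**Figure D1:**
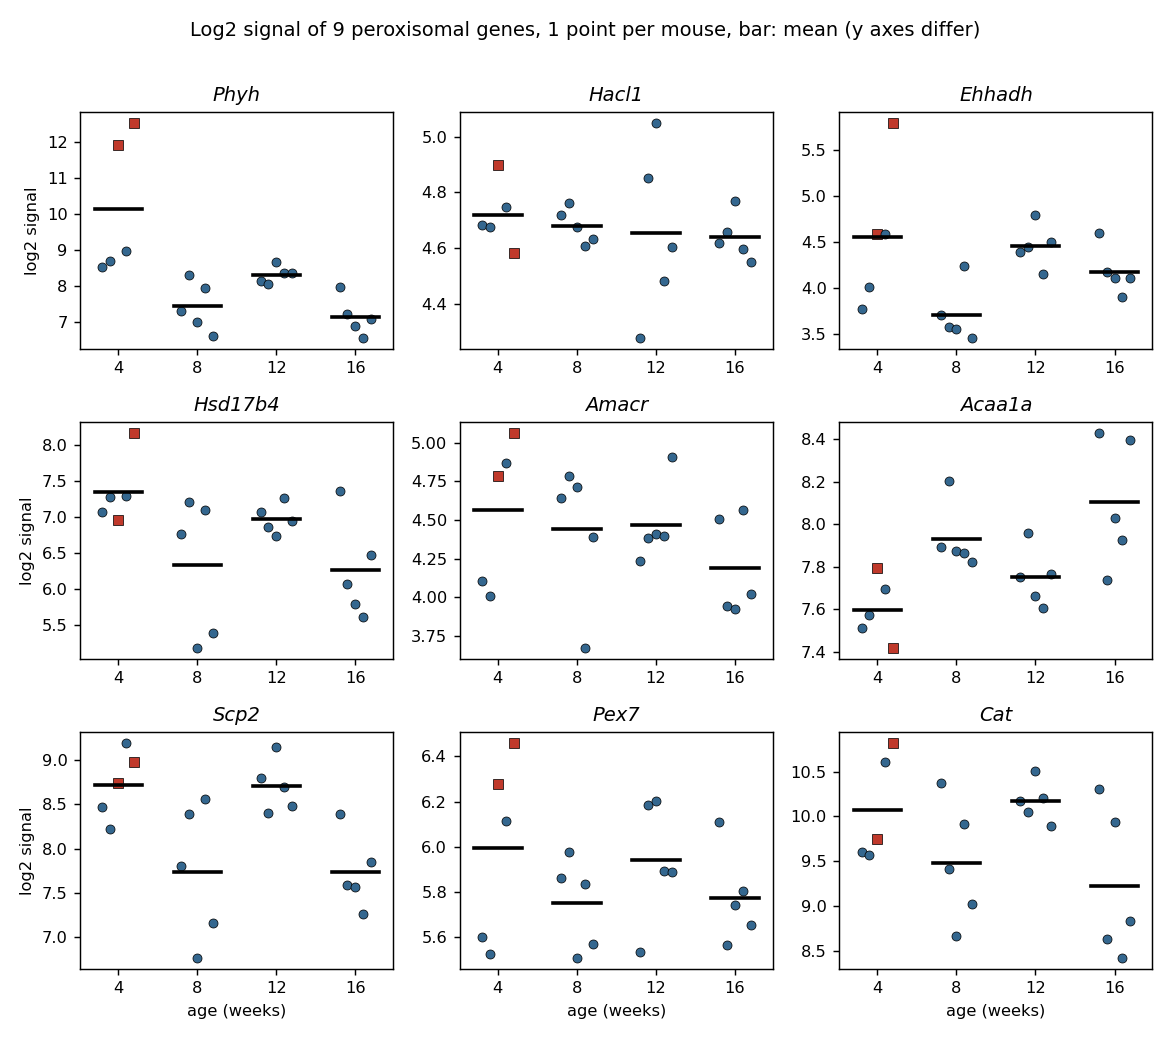
Log2 signal (y axis, scaled for each gene) of the 9 genes against age in weeks, each mouse as a point and each mean of 5 as a bar; red squares are mice 3 and 5 of 4 weeks. Phyh in these 2 mice reached 11.92 and 12.52, and in the other 18 mice it lay between 6.55 and 8.98.

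Phyh, the gene of the hydroxylase that opens α-oxidation, had log2 signals of 8.51, 8.68, 11.92, 8.98 and 12.52 in mice 1 to 5 of 4 weeks. At 8 weeks the values were 7.30, 8.30, 7.00, 7.94 and 6.62. All mice of 8 weeks lay below all mice of 4 weeks, a separation downwards that 1.96% of all genes showed, but the 4-week group was itself split, with mice 3 and 5 well above the others. The mean fell from 10.12 ± 1.93 (SD, n = 5) to 7.43 ± 0.68 (SD, n = 5), 6.45-fold on the linear scale (log2 fold change -2.69, SE 0.60, adjusted p = 0.0248 by limma).

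At 12 weeks Phyh had log2 signals of 8.13, 8.05, 8.67, 8.34 and 8.36. At 16 weeks it had 7.95, 7.21, 6.88, 6.55 and 7.08. The 12-week mice lay close together and overlapped with those of 8 weeks, and the 16-week mice all lay below those of 12 weeks, as did 1.86% of all genes. The difference from 8 to 12 weeks was 0.88 (SE 0.60, limma adjusted p = 0.403), with a 95% interval from -0.37 to 2.13. That from 12 to 16 weeks was -1.17 (SE 0.60, limma adjusted p = 0.380), with a 95% interval from -2.42 to 0.07, and it passed in the arrays of the 2 ages alone (adjusted p = 0.0400). From 4 to 16 weeks, again without overlap (1.65% of all genes were so separated downwards), Phyh fell by 2.98 (SE 0.60, limma adjusted p = 0.0150). It was the only member past the threshold in the limma F-test of any age difference (adjusted p = 0.0286), which 2.6% of all genes passed. The F-test and the comparison of 16 with 4 weeks use the same 4-week arrays as the fall known beforehand. Neither is independent of the choice of Phyh.

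The size of the fall in Phyh turned on mice 3 and 5 of 4 weeks. Without both of them the difference from 4 to 8 weeks was -1.29 (limma adjusted p = 0.123) and that from 4 to 16 weeks -1.59 (limma adjusted p = 0.0669), and no member was called in any comparison. Leaving out 1 mouse at a time, the call at 8 weeks was lost without mouse 4 of 4 weeks (-2.98, adjusted p = 0.0501), mouse 5 of 4 weeks (-2.09, 0.0827), mouse 3 of 8 weeks (-2.58, 0.0738) or mouse 5 of 8 weeks (-2.49, 0.0807). The call from 4 to 16 weeks was lost without mouse 4 of 16 weeks (-2.84, 0.0513). With the spread of signal of each array as a covariate, the difference was -1.55 at 8 weeks (limma adjusted p = 0.302) and -1.93 at 16 weeks (0.0725), and in the arrays of the 2 ages alone both calls were lost at the reported differences (0.0954 and 0.104). The call of the F-test was lost without mouse 3 or 5 of 4 weeks or mouse 2, 4 or 5 of 16 weeks, with the replicate block and with the covariate.

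Mice 3 and 5 of 4 weeks stood apart in other genes as well. They were the 2 highest of the 20 arrays in 465 genes, 2.56% of those measured, and exceeded all others by more than 1 on the log2 scale in 20 genes. Among the 9 members they were the 2 highest for Phyh and Pex7. The lower of the pair exceeded the remaining 18 arrays by 2.94 for Phyh. Mouse 5 of 4 weeks alone was the highest array for 6 of the 9 members, namely Phyh, Ehhadh, Hsd17b4, Amacr, Pex7 and Cat, and for 21.2% of all genes. Its array had the widest spread of signal of the 20 (SD 1.90), and that of mouse 5 of 8 weeks the narrowest (1.38). At 4 weeks it also had the lowest mean correlation with arrays of its age (r 0.94). Its 3' minus 5' Gapdh signal was the lowest of 4 weeks, 1.67, where the highest was 2.85. The part of array quality in these signals was not tested.

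The genes most like Phyh across the 20 arrays, by Pearson's r of log2 signal, were Edem3 (0.94), Dld (0.92), Cdadc1 (0.91), Susd2 (0.91) and Insig2 (0.91). Edem3 acts in the disposal of misfolded glycoproteins, Dld encodes a dehydrogenase shared by mitochondrial complexes, and Insig2 restrains sterol synthesis. On values centred on each age the nearest were Sval2 (0.92), Chst1 (0.89), Gm12888 (0.89), Edem3 (0.89) and 9530002B09Rik (0.89). These coefficients describe 20 arrays that share the same few high mice.

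In mice 1 to 5 of 4 weeks Sval2 had log2 signals of 4.98, 4.09, 12.53, 7.37 and 12.63, and in the 15 older mice it stayed between 5.49 and 6.97. Chst1, a sulfotransferase gene, had 5.69, 5.53, 9.95, 5.51 and 10.85, and between 4.71 and 5.85 in the older mice. Edem3 had 7.93, 8.00, 10.05, 9.07 and 10.76, and between 6.83 and 8.69 in the older mice. The same pair of mice was the highest for each of these genes. These genes were picked for their likeness to Phyh over the same arrays, so this is not a separate observation.

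Several adipocyte markers were also higher in these mice than in the other mice of 4 weeks. Adipoq, the gene of the fat cell hormone adiponectin, had log2 signals of 3.50, 3.13, 6.49, 4.85 and 6.89 in mice 1 to 5. Fabp4, a fatty acid binding protein of fat cells, had 5.32, 5.18, 7.99, 6.79 and 8.94. Adipoq reached 6.64 and Fabp4 9.45 in mice of other ages, in which Phyh was not above 8.67. Over the 10 measured of 12 adipocyte markers, the mean log2 signal per mouse ranged from 4.52 to 6.49 at 4 weeks and from 4.41 to 6.35 at the older ages. In 6 of these 10 markers, Adipoq, Fabp4, Pck1, Cidea, Ucp1 and Car3, both mice lay above the other mice of 4 weeks, and in the remaining 4, Cidec, Lep, Retn and Lipe, they did not. The part of fat cells in the signal of Phyh was not tested.

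**Figure D2:**
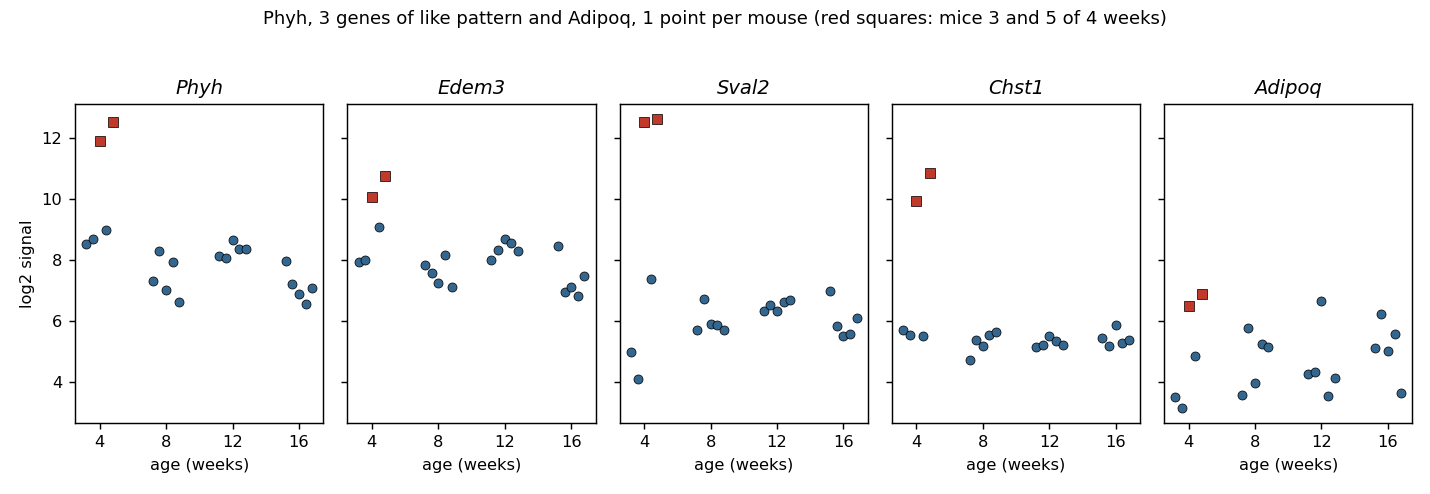
Log2 signal (y axis, shared) against age in weeks for Phyh, for Edem3, Sval2 and Chst1, which were among the genes most like it, and for the adipocyte gene Adipoq; each point is 1 mouse and red squares are mice 3 and 5 of 4 weeks. The squares are the 2 highest points for the first 4 genes, but for Adipoq a mouse of 12 weeks, at 6.64, lay between them.

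Hacl1, whose enzyme takes the next step of α-oxidation, stayed between age means of 4.64 and 4.72. Its signals were 4.69, 4.68, 4.90, 4.75 and 4.58 at 4 weeks and 4.72, 4.76, 4.68, 4.61 and 4.63 at 8 weeks, so the groups overlapped throughout. The difference was -0.04 (SE 0.13, limma adjusted p = 0.849), with a 95% interval from -0.30 to 0.22. Hacl1, Amacr and Ehhadh were dim, with mean signals at percentiles 29.3, 24.2 and 20.7 of all genes. No detection calls were used, so it is not known whether these probe sets lay above background, where a change in RNA could be missed. The widest spread was at 12 weeks, from 4.28 to 5.05.

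Pex7, the import receptor, had signals of 5.60, 5.53, 6.28, 6.12 and 6.46 at 4 weeks and 5.86, 5.98, 5.51, 5.83 and 5.57 at 8 weeks. The highest 3 values of 4 weeks lay above all those of 8 weeks and the lowest 2 lay among them. The difference was -0.25 (SE 0.18, limma adjusted p = 0.336), with a 95% interval from -0.62 to 0.13. Its age means then stood at 5.94 and 5.78.

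Amacr, the racemase gene, had signals of 4.11, 4.01, 4.79, 4.87 and 5.06 at 4 weeks and of 4.64, 4.78, 4.71, 3.67 and 4.39 at 8 weeks. Both ages spanned over 1 log2 unit and overlapped, and the difference was -0.13 (SE 0.23, limma adjusted p = 0.714). Its means at 12 and 16 weeks were 4.47 ± 0.26 and 4.19 ± 0.32 (SD, n = 5).

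Of the bifunctional enzymes, Hsd17b4 acts on very long and branched chains and on bile acid intermediates, and Ehhadh mainly on straight and dicarboxylic chains. Hsd17b4 had log2 signals of 7.07, 7.28, 6.96, 7.29 and 8.16 at 4 weeks and of 6.76, 7.21, 5.18, 7.09 and 5.40 at 8 weeks. The 8-week mice fell into a higher trio, close to the values of 4 weeks, and a low pair. The difference was -1.02 (SE 0.37), with a 95% interval from -1.80 to -0.25, and did not pass the limma test after adjustment (adjusted p = 0.0771). It passed without mouse 4 of 8 weeks (-1.21, adjusted p = 0.0409), without mouse 1 of 16 weeks (adjusted p = 0.0468) and with both probe sets averaged (-1.15, adjusted p = 0.0468).

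Hsd17b4 had signals of 7.06, 6.86, 6.74, 7.27 and 6.94 at 12 weeks and of 7.37, 6.07, 5.79, 5.62 and 6.47 at 16 weeks. Mouse 1 of 16 weeks was above those of 12 weeks and the others were lower. The 12-to-16-week difference was -0.71 (SE 0.37, limma adjusted p = 0.391), and that from 4 to 16 weeks -1.09 (SE 0.37, limma adjusted p = 0.0908). Without mouse 1 of 16 weeks the latter was -1.36 and passed (limma adjusted p = 0.0153), as it did with array weights (-1.13, adjusted p = 0.0303).

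Ehhadh had signals of 3.78, 4.01, 4.58, 4.58 and 5.79 at 4 weeks and of 3.71, 3.58, 3.56, 4.24 and 3.46 at 8 weeks. The groups overlapped through mouse 4 of 8 weeks, and mouse 5 of 4 weeks was well above the rest. The difference was -0.84 (SE 0.27), and its limma adjusted p of 0.0541 lay just above the threshold. It passed when mouse 1 or 2 of 4 weeks, mouse 4 of 8 weeks or mouse 1 of 16 weeks was left out (adjusted p from 0.0258 to 0.0410), with median centring of the arrays (0.0478), with cyclic loess (0.0408) and with trend and robust variances (0.0459). Without mice 3 and 5 of 4 weeks it was -0.42 (limma adjusted p = 0.288).

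At 12 weeks Ehhadh had signals of 4.39, 4.45, 4.79, 4.16 and 4.50, and at 16 weeks of 4.60, 4.18, 4.11, 3.91 and 4.11. Of the 12-week mice 4 were above all those of 8 weeks. The difference of 0.75 (SE 0.27) did not pass over all arrays (limma adjusted p = 0.176) but did in the arrays of the 2 ages alone (limma adjusted p = 0.0483). Mean signals were thus highest at 4 weeks, 4.55 ± 0.78, and 12 weeks, 4.46 ± 0.23, and lowest at 8 weeks, 3.71 ± 0.31 (SD, n = 5).

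Scp2, the source of the thiolase for branched chains and of a sterol carrier protein, had log2 signals of 8.47, 8.22, 8.75, 9.20 and 8.98 at 4 weeks. At 8 weeks it had 7.80, 8.39, 6.76, 8.56 and 7.15. Mice 2 and 4 of 8 weeks lay within the range of 4 weeks and the others lay below it. Scp2 fell from 8.72 ± 0.39 to 7.73 ± 0.78 (SD, n = 5), 1.98-fold (log2 fold change -0.99, SE 0.29, limma adjusted p = 0.0458).

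That call was close to the threshold. It was lost in 12 of 20 fits that left out 1 mouse (limma adjusted p from 0.0162 to 0.140 over the 20), kept only without mouse 1 or 2 of 4 weeks, mouse 1, 2 or 4 of 8 weeks, or mouse 1, 2 or 4 of 16 weeks. It was also lost after cyclic loess (difference -0.51, limma adjusted p = 0.109), with the signal spread as a covariate (-0.44, adjusted p = 0.552), and with the 4 probe sets averaged (-0.22, adjusted p = 0.415). With the replicate block, array weights, trend and robust variances or the 2 ages alone the difference was between -0.99 and -0.90 and the limma adjusted p 0.0719, 0.0849, 0.0514 and 0.112. It was kept with median centring and with the filter on dim genes.

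At 12 weeks the signals of Scp2 were 8.80, 8.40, 9.15, 8.70 and 8.48, and at 16 weeks 8.40, 7.59, 7.57, 7.26 and 7.85. The 12-week mice were back in the range of 4 weeks, while the 16-week mice lay below those of 12 weeks without overlap, though the nearest pair both round to 8.40. The difference from 8 to 12 weeks was 0.97 (SE 0.29, limma adjusted p = 0.143) and that from 12 to 16 weeks -0.97 (SE 0.29, limma adjusted p = 0.169). Without mouse 4 of 8 weeks the first was 1.18 and passed (adjusted p = 0.0485), and without mouse 1 of 16 weeks the second was -1.14 and passed (adjusted p = 0.0336). From 4 to 16 weeks the difference was -0.99 (SE 0.29, limma adjusted p = 0.0617), and it passed without mouse 2 of 4 weeks, mouse 3 or 4 of 8 weeks or mouse 1 of 16 weeks, with median centring (adjusted p = 0.0497), with the filter on dim genes (0.0483) and with array weights (0.0188).

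Acaa1a encodes the other thiolase. Its signals were 7.51, 7.57, 7.79, 7.70 and 7.42 at 4 weeks and 7.90, 8.20, 7.88, 7.86 and 7.82 at 8 weeks. All mice of 8 weeks lay above those of 4 weeks, by a narrow margin and without passing the test (difference 0.33, SE 0.14, limma adjusted p = 0.106), as 3.79% of all genes were separated upwards. After cyclic loess the difference was 0.74 and passed (limma adjusted p = 0.0288). At 12 weeks the signals were 7.75, 7.96, 7.66, 7.61 and 7.77, and at 16 weeks 8.43, 7.74, 8.03, 7.93 and 8.40.

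From 4 to 16 weeks Acaa1a rose from 7.60 ± 0.15 to 8.10 ± 0.30 (SD, n = 5), a difference of 0.51 (SE 0.14, limma adjusted p = 0.0452), while 0.506% of all genes were called higher. The groups overlapped, since mouse 2 of 16 weeks was below mouse 3 of 4 weeks. The call was lost in 15 of 20 fits that left out 1 mouse (adjusted p from 0.0430 to 0.151 over the 20). Of these fits it was kept only without mouse 1, 2, 3 or 5 of 8 weeks or mouse 1 of 16 weeks. It was also lost with median centring (0.44, limma adjusted p = 0.0638), averaged probe sets (0.42, adjusted p = 0.337), the replicate block (adjusted p = 0.0833), trend and robust variances (0.101), the spread covariate (0.0944) and the 2 ages alone (0.150). It was kept after cyclic loess, with array weights and with the filter on dim genes.

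Cat, which encodes catalase, had log2 signals of 9.61, 9.57, 9.75, 10.61 and 10.82 at 4 weeks and of 10.38, 9.42, 8.66, 9.92 and 9.02 at 8 weeks. The groups overlapped widely (difference -0.59, SE 0.36, limma adjusted p = 0.250), and with both probe sets averaged the difference was -1.31 and passed (limma adjusted p = 0.0457). At 12 weeks the signals were 10.17, 10.05, 10.51, 10.21 and 9.90, and at 16 weeks 10.30, 8.63, 9.94, 8.42 and 8.84. The 12-week mice were uniform and the 16-week mice were split, with mice 1 and 3 near the values of 12 weeks and the other 3 more than 1 log2 unit below all of these. The difference from 12 to 16 weeks was -0.94 (SE 0.36, limma adjusted p = 0.269). Without mouse 1 of 16 weeks it was -1.21 and passed (adjusted p = 0.0439), as did that from 4 to 16 weeks, -1.11 (adjusted p = 0.0318).

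**Figure D3:**
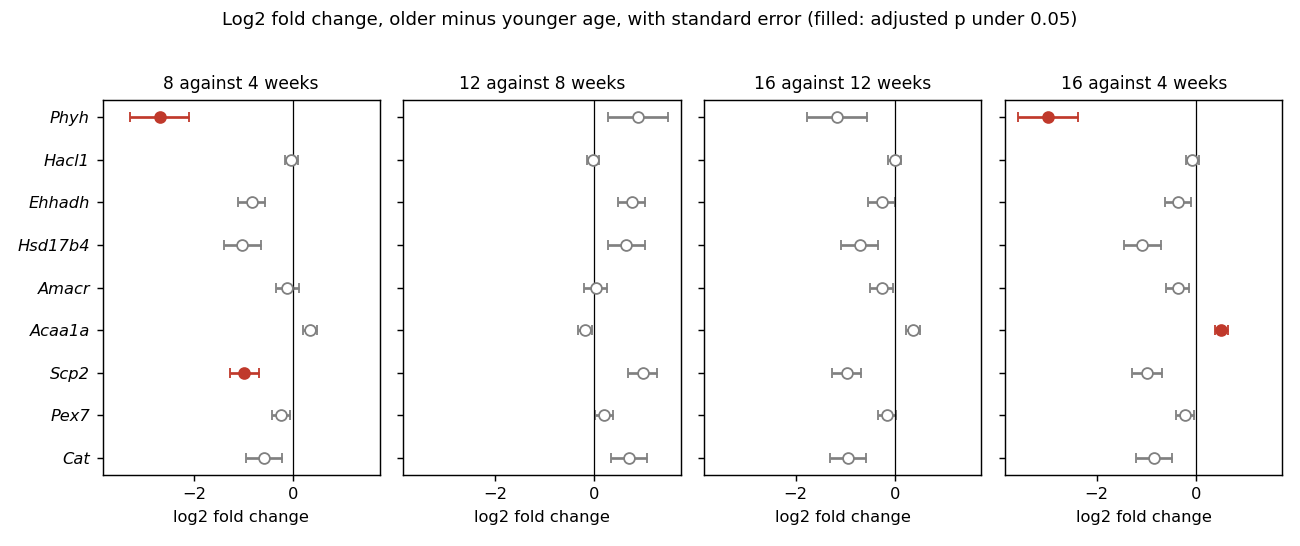
Log2 fold change (x axis, older minus younger age) of each gene in 4 comparisons, with bars of 1 standard error; filled red points had a limma adjusted p under 0.05. Phyh and Scp2 are filled at 8 against 4 weeks, Phyh and Acaa1a at 16 against 4 weeks, and none in the other panels.

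Most of the 9 genes had a negative, then a positive, then a negative difference over the 3 steps, few of which passed the test. The log2 fold change was negative for 8 of 9 members from 4 to 8 weeks, with a median of -0.59 (0.05 over all genes, of which 45.2% were negative). It was negative for 2 of 9 from 8 to 12 weeks, with a median of 0.65 (-0.05 over all genes, 55.9% negative), and for 8 of 9 from 12 to 16 weeks, with a median of -0.28 (-0.02 over all genes, 53.2% negative). Each age but the first and last enters neighbouring steps with opposite sign, so these counts are not independent. In the remaining comparisons no member was called: at an unadjusted p under 0.05 there was 1 from 4 to 12 weeks and 0 from 8 to 16 weeks, against 9.03% and 5.81% of all genes. After adjustment limma called 0.0934% and 0% of all genes there.

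The log2 signal of most members moved with the spread of signal over genes on each array, which was wider at 4 and 12 weeks. Pearson's r with that spread over 20 arrays was 0.89 for Cat, 0.84 for Ehhadh and Hsd17b4, 0.81 for Scp2, 0.76 for Phyh, 0.73 for Pex7, 0.43 for Amacr, -0.01 for Hacl1 and -0.30 for Acaa1a. Genes with a mean signal within 0.25 of Scp2 and Phyh had a median r of 0.81, of Cat 0.83 and of Hsd17b4 0.50. For genes near Ehhadh it was -0.35, near Amacr -0.34, near Hacl1 -0.32 and near Pex7 -0.03, while for those near Acaa1a it was 0.78. Phyh, Scp2 and Cat thus had an r close to that of genes of like signal, and Ehhadh and Acaa1a had the widest gaps from it.

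When genes were divided into 10 bins of equal size by mean signal, the brightest bin showed a median difference of -0.49 (log2) at 8 against 4 weeks. At the next 2 steps the medians were 0.50 and -0.53. Within that bin, the fold change of Cat at 8 weeks stood at percentile 43.6 and that of Scp2 at percentile 19.4. Phyh stood at percentile 0.110 and Acaa1a at percentile 90.5. Ehhadh, in bin 3 from the dimmest with a median of 0.14, stood at percentile 1.37. Hsd17b4, in bin 9 with a median of -0.25, stood at percentile 8.63.

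**Figure D4:**
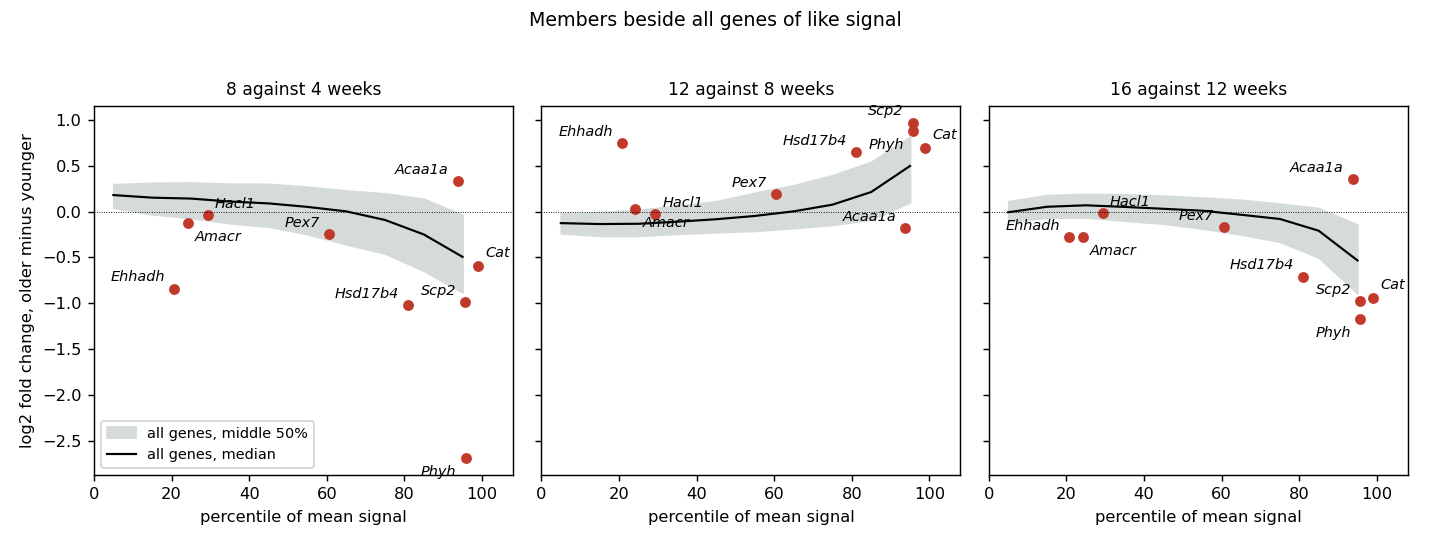
Log2 fold change (y axis, older minus younger age) of the 9 genes (red points) against the percentile of their mean signal, over the median (line) and interquartile range (grey) of all genes in each of 10 bins of signal. The median of bright genes was negative, positive and negative in turn; Phyh at 8 weeks (-2.69) and Ehhadh at 8 and 12 weeks lie far outside the grey band, and Acaa1a at 8 weeks (0.33) lies above it.

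With the spread as a covariate no member was called in any of the 6 comparisons, and the fold changes of Cat, Pex7 and Amacr from 4 to 8 weeks turned positive (0.29, 0.07 and 0.09). From 4 to 8, 8 to 12 and 12 to 16 weeks, 8, 2 and 5 of 8 fibroblast markers had a negative difference. Of 8 myoepithelial and basal markers 7, 3 and 7 did, and of 10 adipocyte markers 8, 7 and 1. Over all genes 45.2%, 55.9% and 53.2% were negative at these steps. From 4 to 8 weeks 4 fibroblast markers were called lower by limma and none higher (median -0.97). At that step 4.13% of all genes were called lower and 7.39% in either direction. The mean log2 signal of the fibroblast markers per mouse ranged from 7.41 to 7.98 at 4 weeks and 6.33 to 7.07 at 8. It ranged from 6.87 to 7.33 at 12 weeks and 6.20 to 7.55 at 16. The mean log2 signal of the acinar markers was 10.6, 9.51, 9.87 and 9.44 at 4, 8, 12 and 16 weeks, and that of 10 duct markers 7.10, 7.45, 8.36 and 7.62. The markers within each list did not move together. Of 11 acinar markers 7, 4 and 9 had a negative difference at the same steps, and of 10 duct markers 5, 1 and 7. From 4 to 8 weeks limma called 1 acinar marker lower and 3 duct markers higher. The part of cell composition in the members' signals was not tested.

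Of the members, 4 had more than 1 probe set of their own. Fold changes of single probe sets were fitted over all 34958 probe sets with 1 symbol. Phyh, Hacl1, Ehhadh, Amacr and Pex7 were each read by 1 probe set, and no second reading was available for them.

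For Cat, the dimmer probe set (1416430_at) fell further from 4 to 8 weeks, from 7.93 ± 1.07 to 5.89 ± 1.04 (SD, n = 5), by 2.03 (SE 0.50, limma adjusted p = 0.0299). Its means at 12 and 16 weeks were 7.14 and 6.19. For Hsd17b4, the second probe set (1417369_at) fell by 1.28 (SE 0.36, limma adjusted p = 0.0426), from 7.24 ± 0.91 to 5.95 ± 0.69 (SD, n = 5). For both genes all probe sets had the same order of signs over the 3 neighbouring steps, and the set that stood for the gene missed the threshold.

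The 4 probe sets of Scp2 disagreed. The 1426219_at set, with means of 7.34, 6.42, 7.15 and 6.69 at 4, 8, 12 and 16 weeks, went the way of the brightest one, with a difference of -0.92 from 4 to 8 weeks (SE 0.37, limma adjusted p = 0.104). The 1419975_at set hardly differed at that step (7.15 and 7.24, difference 0.08, SE 0.29, limma adjusted p = 0.862). The 1419974_at set went the other way, from 5.86 to 6.80 (difference 0.94, SE 0.34, limma adjusted p = 0.0852). The mean of all 4 sets differed by -0.22 (limma adjusted p = 0.415).

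For Acaa1a, the second set with that symbol alone (1456011_x_at) was dim, with a mean of 3.71 over 20 arrays, and its difference from 4 to 16 weeks was 0.34 (SE 0.45, limma adjusted p = 0.689). A further 2 probe sets were annotated to both Acaa1a and its near copy Acaa1b and were left out by the rule. They had means of 7.52, 6.55, 7.41 and 6.98, and of 5.22, 4.21, 4.94 and 4.55, at 4, 8, 12 and 16 weeks. Their differences from 4 to 16 weeks were -0.54 (limma adjusted p = 0.524) and -0.67 (limma adjusted p = 0.359), opposite in sign to the probe set that stood for Acaa1a. The rise of Acaa1a therefore rested on 1 probe set, and reads of the 2 copies cannot be told apart in the shared sets.

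**Figure D5:**
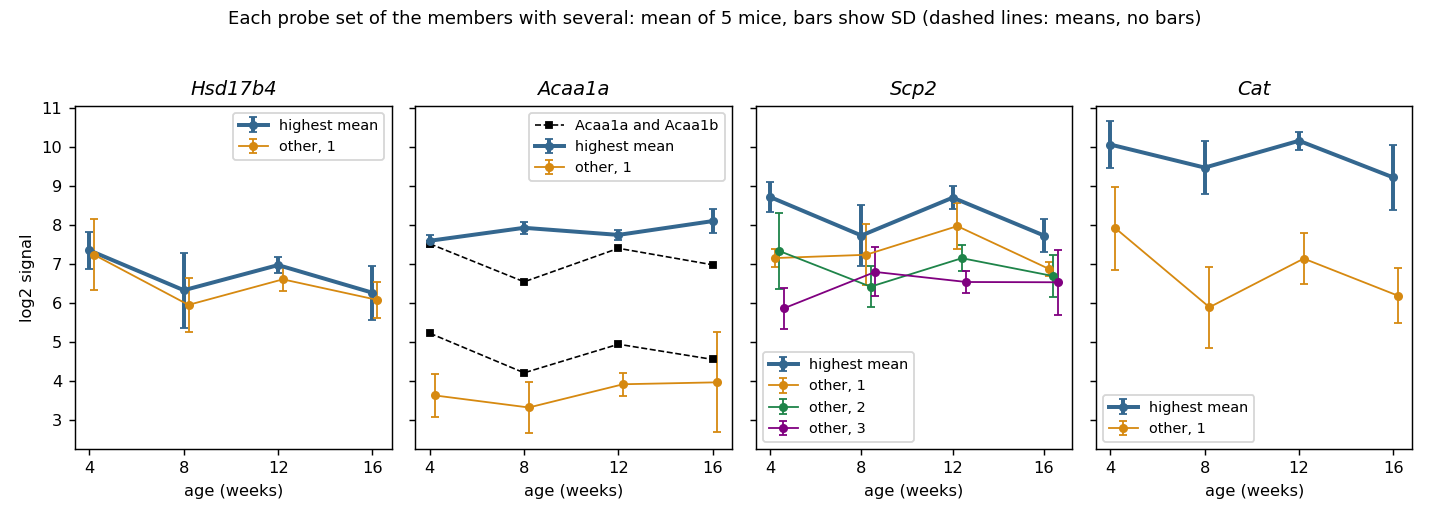
Mean log2 signal (y axis) with SD over 5 mice against age in weeks for each probe set of Hsd17b4, Acaa1a, Scp2 and Cat; thick lines are the sets that stood for the gene, and dashed lines without bars are the means of the 2 sets annotated to both Acaa1a and Acaa1b. The dashed lines dip at 8 weeks (6.55 and 4.21) where the thick Acaa1a line is higher than at 4 weeks (7.93 against 7.60).

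Other genes of the pathway and some of their relatives were taken from a list of 35, of which 32 were measured. From 4 to 8 weeks limma called 4.13% of all genes lower and 7.39% in either direction. Of the 32, 5 were lower and 3 higher by limma (median 0.02 over the list and 0.05 over all genes). The genes that fell were Ech1 (-1.51, SE 0.38, adjusted p = 0.0314), an isomerase of unsaturated chains, Abcd3 (-1.42, SE 0.40, adjusted p = 0.0399), a transporter of branched acyl-CoAs and bile acid precursors, Acbd5 (-0.93), Eci2 (-0.82) and Aldh3a2 (-0.77). Acbd5 tethers peroxisomes to the endoplasmic reticulum and Aldh3a2 oxidises fatty aldehydes. The genes that rose were Slc25a17 (0.94), a cofactor carrier of the peroxisomal membrane, Abcd4 (0.50), a relative of Abcd3 whose protein is lysosomal, and Acot3 (0.42), a thioesterase. Eci2, Aldh3a2, Abcd4 and Acot3 fell outside the 4 largest changes and were named after their values were seen, to complete the list of those called.

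In neither later step was any of the 32 called by limma, where 0.0055% and 0.192% of all genes were. At an unadjusted p under 0.05 there were 5 from 8 to 12 weeks and 3 from 12 to 16 weeks. Over all genes these shares were 18.8% and 14.2%. At 16 against 4 weeks Pecr, Acbd5, Aldh3a2 and Hsdl2 were lower and none was higher, with 3.12% of all genes called lower. Pecr, a reductase of unsaturated acyl-CoAs, differed by -1.18 (SE 0.30, limma adjusted p = 0.0356).

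Among 19 measured peroxins, the proteins that build and divide peroxisomes, and their partners in fission, 2 were called lower from 4 to 8 weeks and none higher (median -0.21). These were Pex13 (-1.29, SE 0.38, limma adjusted p = 0.0449), part of the docking complex for PEX7 and the other import receptor, and Dnm1l (-0.82, SE 0.24, limma adjusted p = 0.0421), a fission GTPase shared with mitochondria. Over all genes limma called 4.13% lower and 7.39% in either direction from 4 to 8 weeks. At this step limma called none of 8 plasmalogen genes (median -0.11) and none of 10 oxidase and antioxidant genes other than Cat (median -0.36). At an unadjusted p under 0.05 each list held 3 genes, against 32.4% of all genes. The second list is not confined to peroxisomal genes, since it holds Sod1, Gpx1 and Nqo1. Of 8 bile acid side chain genes only Baat, which conjugates bile acids, was called, and it was higher (0.58, SE 0.15, limma adjusted p = 0.0350).

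Mitochondrial fatty acid oxidation, the parallel route, had 4 of 22 measured genes lower from 4 to 8 weeks and none higher (median -0.61). Over all genes limma called 4.13% lower and 7.39% in either direction at this step, and the median was 0.05. Etfa (-1.76, SE 0.35, limma adjusted p = 0.0185) and Etfdh (-1.21, SE 0.31, limma adjusted p = 0.0309) pass electrons from the first oxidation step to the respiratory chain, Acadl (-1.50, SE 0.40, limma adjusted p = 0.0345) carries out that step, and Cpt1a (-1.03, SE 0.26, limma adjusted p = 0.0307) admits the chain to the mitochondrion. The median of the 9 peroxisomal members was -0.59 at the same step. Of 23 measured genes of PPARα, its partners and its targets, limma called only Cpt1a, which was lower (median -0.20). Ppara itself differed by 0.20 (limma adjusted p = 0.250).

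Limma called no gene of these 7 lists in either later step, where it called 0.0055% and 0.192% of all genes. At an unadjusted p under 0.05 a list held from 1 to 5 genes from 8 to 12 weeks, against 18.8% of all genes. From 12 to 16 weeks a list held from 1 to 3, against 14.2% of all genes. From 4 to 16 weeks limma called Etfa lower (-1.30, SE 0.35, adjusted p = 0.0453) and Ppargc1b, a coactivator of lipid oxidation genes, higher (1.01, SE 0.22, adjusted p = 0.0209) besides the 4 peroxisomal genes above. The lists share genes, among them Cpt1a, Acadm and Pex11a, and were drawn up with earlier results of these arrays known.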

How the data were processed

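Total RNA of the glands of each mouse was hybridised separately, without pooling, to 1 Affymetrix GeneChip Mouse Genome 430 2.0 array. The authors made the deposited log2 signals with RMA (background correction, quantile normalisation and summary of probes) in Expression Console 1.1; which arrays were normalised together is not given in the sources used here. Quantile normalisation is meant to make arrays alike in their overall distribution, so a signal is relative to the other genes of its array. The deposited arrays still differed in their spread over genes, with an SD from 1.38 to 1.90 in all and from 1.55 to 1.90 within 4 weeks. The reason was not tested. Signals of different probe sets are not comparable as amounts of RNA. Arrays give no counting depth, and the number of mice limits the precision.

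Of 45101 probe sets, 34958 had 1 gene symbol in the platform annotation, 932 had several and 9211 were not listed. For each of 18194 genes the probe set of highest mean was tested with limma 3.58.1 in R 4.3.3 (lmFit and eBayes on the log2 values of all 20 arrays with age as factor), and p-values were adjusted by Benjamini-Hochberg over all genes, separately for each of 6 comparisons, with a threshold of 0.05. The script was tested on simulated data. Samples were grouped by the age in their labels. The text names all 9 members, the 5 genes most like the member of widest age range on each of 2 bases, and at most 4 called genes per list and comparison unless it says otherwise. The members and gene lists were chosen with earlier results of these data known. Alternatives were other scalings, probe set rules, filters, weights, covariates and leaving out mice. Nothing says that mice of an age came from separate litters, and p-values measure the spread between these mice.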

Additional observations from a re-analysis of the deposited data

Results flagged for a closer look

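Among 36 groups of 5 mice (9 genes at 4 ages), 3 held a mouse set apart from the others by more than 0.71 of the whole range of the group, Dixon's limit, which chance passes in about 1 in 20 groups. Hsd17b4 at 4 weeks was highest in mouse 5, at 8.16, with the others between 6.96 and 7.29. Amacr at 12 weeks was highest in mouse 5, at 4.91, with the others between 4.23 and 4.41. Acaa1a at 8 weeks was highest in mouse 2, at 8.20, with the others between 7.82 and 7.90. The split of Phyh at 4 weeks into a high pair and a low trio was not of this kind, since the high pair lay close together.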

How the results depend on the processing

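The count of members called from 4 to 8 weeks, 2 in the reported fit, was 3 with median centring (Phyh, Ehhadh, Scp2), cyclic loess (Phyh, Ehhadh, Acaa1a) and averaged probe sets (Phyh, Hsd17b4, Cat), 2 with the filter and with trend and robust variances (there Phyh and Ehhadh), 1 with array weights, and 0 with the signal spread as covariate, with the arrays of the 2 ages alone and without mice 3 and 5 of 4 weeks. From 8 to 12 weeks, with 0 reported, 1 was called in the arrays of the 2 ages alone (Ehhadh), and from 12 to 16 weeks, with 0 reported, 1 there (Phyh) and 1 with array weights (Scp2). From 4 to 16 weeks, with 2 reported, it was 1 with the mean of probe sets and with trend and robust variances, 4 with array weights, 3 with the filter (Phyh, Acaa1a, Scp2), 2 with cyclic loess and with median centring (there Phyh and Scp2), and 0 with the covariate, the 2 ages alone and without those mice. For any age, with 1 reported, it was 2 with median centring, cyclic loess, array weights and the filter at the 40th percentile, and 0 with the covariate and without those mice. Leaving out 1 mouse at a time, members called ranged from 0 to 4 at 8 against 4 weeks, 0 to 1 at 12 against 8, 0 to 2 at 16 against 12, 0 to 5 at 16 against 4 and 0 to 4 for any age, and stayed at 0 in the other comparisons. Genes called over the array ranged from 14 to 2694 at 8 against 4 weeks, 1 to 225, 9 to 1035, 81 to 3003 (16 against 4), 6 to 22 (12 against 4) and 0 to 1 (16 against 8). At 8 against 4 weeks 593 genes were called higher and 752 lower, and after median centring 261 and 1053. The cause of these shifts was not tested. The alternative that left out both mice and the shared Acaa1a sets were chosen after seeing the data.

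With the replicate number as a block, 1 member was called from 4 to 8 weeks (Phyh), 1 from 4 to 16 weeks and 0 for any age, and 245 genes in place of 1345 were called over the array from 4 to 8 weeks. Same-numbered mice did not deviate together (median r 0.014 over 30 pairs, 8 of them over 0.1), and 4 of 20 arrays matched best with their own number, so the numbers were not taken as pairs.

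Of 570 member values under alternatives other than leaving out 1 mouse, 471 kept direction and side of the threshold, 23 lost a call, 15 gained one and 61 changed sign, none of the latter with an adjusted p under 0.05. The log2 fold changes that changed sign follow, by weeks compared. With the signal spread as covariate these were Phyh (-0.0326 at 12 against 8), Ehhadh (0.15 at 16 against 12, 0.0219 at 12 against 4, 0.17 at 16 against 4), Amacr (0.0937 at 8 against 4, -0.15 at 12 against 8), Scp2 (0.0923 at 12 against 4), Pex7 (0.0671 at 8 against 4, -0.0607 at 12 against 8, 0.0628 at 16 against 12, 0.00635 at 12 against 4, 0.0692 at 16 against 4) and Cat (0.29 at 8 against 4, -0.0163 at 12 against 8). With arrays centred on their median these were Hacl1 (0.000521 at 12 against 8) and Scp2 (0.0220 at 16 against 8). After cyclic loess these were Hacl1 (0.0595 at 12 against 8, 0.0129 at 16 against 8), Scp2 (0.0318 at 12 against 4, 0.13 at 16 against 8) and Cat (0.14 at 8 against 4, 0.00332 at 16 against 8, 0.15 at 16 against 4). With array weights these were Hacl1 (0.0619 at 16 against 12), Ehhadh (0.0161 at 12 against 4) and Pex7 (-0.0219 at 16 against 8). Without mice 3 and 5 of 4 weeks these were Ehhadh (0.33 at 12 against 4, 0.0559 at 16 against 4), Amacr (0.11 at 8 against 4, 0.14 at 12 against 4), Scp2 (0.0778 at 12 against 4) and Pex7 (0.00181 at 8 against 4, 0.19 at 12 against 4, 0.0272 at 16 against 4). With probe sets of a gene averaged these were Hsd17b4 (0.0324 at 16 against 8), Acaa1a (0.21 at 12 against 8), Scp2 (0.32 at 12 against 4) and Cat (-0.34 at 12 against 4, 0.0211 at 16 against 8). Set 1417369_at gave Hsd17b4 (0.13 at 16 against 8). Set 1456011_x_at gave Acaa1a (-0.31 at 8 against 4, 0.60 at 12 against 8). Set 1419974_at gave Scp2 (0.94 at 8 against 4, -0.26 at 12 against 8, 0.68 at 12 against 4, 0.67 at 16 against 4). Set 1419975_at gave Scp2 (0.0845 at 8 against 4, 0.82 at 12 against 4). Set 1426219_at gave Scp2 (0.27 at 16 against 8). Set 1416430_at gave Cat (-0.78 at 12 against 4, 0.30 at 16 against 8). Set 1416946_a_at, shared with Acaa1b, gave Acaa1a (-1.02 at 8 against 4, 0.73 at 12 against 8, -0.39 at 16 against 12, -0.28 at 12 against 4, -0.67 at 16 against 4). Set 1416947_s_at, shared with Acaa1b, gave Acaa1a (-0.98 at 8 against 4, 0.86 at 12 against 8, -0.42 at 16 against 12, -0.12 at 12 against 4, -0.54 at 16 against 4). When 1 mouse was left out, these ranges crossed 0: Hacl1 (-0.0714 to 0.00714 at 8 against 4, -0.13 to 0.0666 at 12 against 8, -0.11 to 0.0843 at 16 against 12, -0.16 to 0.0291 at 12 against 4), Ehhadh (-0.29 to 0.22 at 12 against 4), Hsd17b4 (-0.35 to 0.16 at 16 against 8), Amacr (-0.27 to 0.0639 at 8 against 4, -0.16 to 0.11 at 12 against 8, -0.24 to 0.0234 at 12 against 4), Scp2 (-0.14 to 0.10 at 12 against 4, -0.24 to 0.21 at 16 against 8), Pex7 (-0.17 to 0.0603 at 12 against 4, -0.0585 to 0.0823 at 16 against 8), Cat (-0.0285 to 0.28 at 12 against 4).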
